A study of Mus musculus with 4 samples.

Results

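The 9 genes described here are transcription factors and surface receptors of the stem-like or progenitor state of CD8 T cells. Tcf7, Lef1, Id3, Bach2 and Myb encode transcriptional regulators, Il7r and Slamf6 encode receptors for survival and costimulatory signals, and Ccr7 and S1pr1 encode receptors for homing to and leaving lymphoid organs. They were looked up by gene symbol and are 9 of the 45773 genes common to the deposited tables. The list was chosen with earlier results of these data known. On mm10 in GENCODE vM21, Id3 spans chr4:136143497-136145755 on the plus strand, Il7r chr15:9505788-9530176 and Ccr7 chr11:99144196-99155077 on the minus strand, and none of these 3 overlaps another annotated gene. Tcf7, Slamf6, Lef1, Bach2 and Myb each overlap at least 1, and the library kit does not mark strand.

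In tumours and chronic infection, a small pool of CD8 T cells that express TCF-1, the product of Tcf7, renews itself and feeds the more differentiated, cytotoxic and exhausted cells. TCF-1 and LEF-1, together with ID3, BACH2 and MYB, hold cells in that pool, while ID2 and BLIMP-1 (Prdm1) accompany differentiation. Naive and central memory cells also use IL-7 receptor signals for survival, CCR7 to enter lymph nodes and S1PR1 to leave them.

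RNA of tumour-infiltrating mouse CD8 T cells was sequenced with SMART-seq, which amplifies full-length cDNA from few cells, in 4 libraries. In the first experiment, Pmel-I CD8 T cells, whose transgenic receptor sees gp100, an antigen of melanocytes, had been transduced with Klf4 or with the retroviral vector MigRI alone, and were given intravenously on day 7 to Rag2 KO mice with MC38-gp100 tumours. The hosts lacked T and B cells of their own, and GFP+ cells were recovered on day 15. In the second, PD1+ CD8 T cells were recovered on day 14 from MC38 tumours of mice labelled Klf4 cKO and of Control (WT) mice, and the library of the first is called cKO-labelled because its Klf4 level does not check the label. MC38 is a mouse colon carcinoma line, each mouse was given 300000 tumour cells, and a sample was 10000 to 20000 T cells. Ages, strains, the Cre driver of the conditional allele and any pooling of mice are not stated in these sources. Each group is 1 library, so there is no spread between animals, no test and no p-value, and every difference compares 2 libraries.

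Levels are in TPM, a measure of transcript abundance that divides by transcript length and sets each library to the same total. Read depth is unknown from TPM, so no counting interval can be given. Differences are those of log2(TPM + 1), taken only within an experiment, and a gene was called higher or lower at 1 log2 or more, which is 2-fold on that scale. The added 1 TPM understates differences of low genes. A gene counted as measured when its 4 libraries averaged 1 TPM or more, which held for 12570 genes and for 9 of 9 members. The median measured gene differed by 0.79 log2 for Klf4 over MigRI and by 0.74 log2 for the cKO-labelled library over Control (WT). Values called relative are differences minus these medians.

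Klf4 itself was at 26.05 TPM in the Klf4-transduced library, against 8.69 TPM in MigRI, a difference of 1.48 log2 and 0.69 relative. It was at 9.28 TPM in the cKO-labelled library, against 7.52 TPM in Control (WT), a difference of 0.27 log2 and -0.47 relative. The level of Klf4 thus does not check the cKO label. The 9 CD8 T cell markers (receptor and CD3 chains, both CD8 chains and Ptprc) were above 0 in every library. Their sum was 5662 TPM with Klf4, 23818 TPM in MigRI, 17490 TPM in the cKO-labelled library and 7552 TPM in Control (WT). The T cell receptor constant genes Trac, Trbc1 and Trbc2 differed on average by -2.03 log2 for Klf4 over MigRI and by 1.82 log2 for the cKO-labelled library over Control (WT). Set against them, the median measured gene was at 2.83 log2 in the first comparison and at -1.08 log2 in the second. Most measured genes are thus past 2-fold higher on that scale in the first comparison and past 2-fold lower in the second. The exact shares were not computed. The 9 CD8 T cell markers, which include Trac, Trbc1 and Trbc2, did not all follow these constant genes. Against them, 2 of the 9 were past 2-fold lower with Klf4, Cd3d at -2.40 log2 and Cd3g at -2.20 log2. In the cKO-labelled library 1 was, Cd3d at -2.23 log2, which as deposited differed by -0.41 log2. In neither comparison was a marker past 2-fold higher against them. In bulk RNA, fewer cells of a type and less RNA per cell cannot be told apart.

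Of the 9 genes, Id3 was higher and Il7r lower in both comparisons, and Ccr7 was lower with Klf4 and higher in the cKO-labelled library. As deposited, S1pr1, Slamf6, Lef1 and Tcf7 also lay above 0 and Bach2 below 0 in both, and none of them was called in both. The libraries themselves differed in one direction in both comparisons. Genes with a longest transcript under 1000 bases held 21.7% of TPM with Klf4, 38.8% in MigRI, 41.3% in the cKO-labelled library and 54.9% in Control (WT). Genes at 1 TPM or more numbered 13170, 11011, 11937 and 10542 in that order. The part of such library differences in the 9 genes was not tested. Id3, which blocks the DNA binding of E proteins, was at 342 TPM in the Klf4-transduced library, against 41.7 TPM in MigRI, and at 105 TPM in the cKO-labelled library, against 15.8 TPM in Control (WT). Il7r, the IL-7 receptor alpha chain, was at 3.57 TPM in the Klf4-transduced library, against 21.5 TPM in MigRI, and at 44.3 TPM in the cKO-labelled library, against 78.2 TPM in Control (WT), where the difference was under 2-fold as deposited. Tcf7 stood between 0.988 and 4.04 TPM in the 4 libraries.

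Promoter sequence is shown for Id3 and Il7r, the members that kept one direction in both experiments under every scaling tried. The study concerns a factor of the KLF family, whose members bind GC-rich CACCC boxes. RefSeq promoters on GRCm38.p6 were found for 7 of the 9 genes. In the 250 bases before the start, the letters CACCC or their reverse complement GGGTG occurred in 4 of the 7 (57.1%; Id3, Lef1, Myb and Tcf7), while 51.3% of 27025 promoters, 1 per gene, held them. The share among these genes is thus close to that of promoters in general. Id3 held 2 matches on the printed strand, given in capitals, in the stretches chr4:136143726-136143755 and chr4:136143759-136143788, both plus strand. The stretch of Il7r upstream of its RefSeq start, chr15:9529877-9530040 on the minus strand, held none and is printed up to the base before that start. Positions are counted back from the RefSeq start. GENCODE places the start of Id3 further upstream, so that both Id3 stretches lie in its first exon there. It also places the start of Il7r further upstream, at chr15:9530176. The Il7r stretch thus lies inside the annotated gene, outside its exons, and ends at the nearest upstream exon of Il7r. A match of letters is a description and no evidence of binding.
Id3, bases -96 to -67: cagggcgggcggGGGTGgacccttggcggt
Id3, bases -63 to -34: ttttgaataaggGGGTGtgtcctagagagg
Il7r, bases -164 to -1: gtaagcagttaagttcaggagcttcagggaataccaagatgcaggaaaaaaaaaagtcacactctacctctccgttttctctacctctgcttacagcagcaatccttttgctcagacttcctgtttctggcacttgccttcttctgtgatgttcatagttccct

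**Figure D1:**
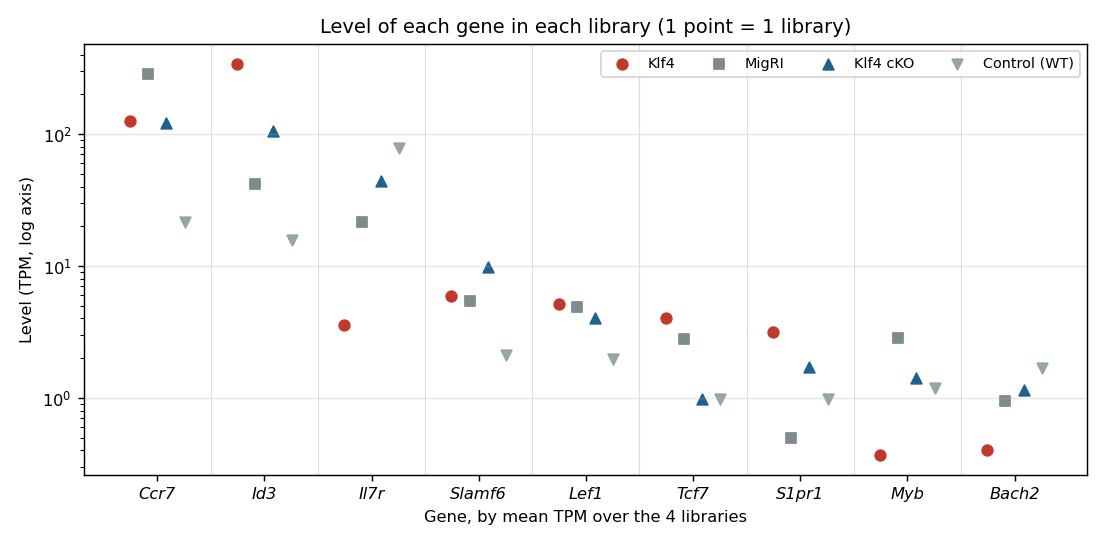
TPM on a log axis for the 9 genes in the 4 libraries, 1 point per library and no error bars because each group is 1 library. Ccr7, Id3 and Il7r stand above the others in most libraries, and Il7r drops to 3.57 TPM in the Klf4-transduced library.

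Ccr7, Id3 and Il7r made up 96.1% of the summed TPM of the 9 genes in the Klf4-transduced library, 95.2% in MigRI, 93.4% in the cKO-labelled library and 92.8% in Control (WT). The order of the levels differed between libraries. Id3 stood first and Ccr7 second in the Klf4-transduced library. In MigRI and in the cKO-labelled library the order was Ccr7, Id3, Il7r, and in Control (WT) it was Il7r, Ccr7, Id3. With 1 library per group, whether neighbours in an order differ beyond their spread cannot be said. Slamf6 and Lef1 followed, and Tcf7, S1pr1, Myb and Bach2 were near or below 4 TPM throughout.

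Klf4-transduced cells were set against MigRI cells for the transcripts of transferred cells that carried added Klf4. Of the 9 genes, 2 were called higher (Id3 and S1pr1) and 3 lower (Il7r, Ccr7 and Myb). Over all 12570 measured genes, 43.7% were called higher and 10.3% lower. After subtraction of the median gene, 1 member (Id3) was higher and 4 (Il7r, Ccr7, Bach2 and Myb) were lower, beside 21.4% and 23.6% of all measured genes. The median of the 9 genes was 0.06 log2, and -0.73 relative.

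The comparison of the cKO-labelled library with Control (WT) concerned endogenous PD1+ cells. Of the 9 genes, 3 were called higher (Ccr7, Id3 and Slamf6) and 0 lower, beside 38.4% and 6.92% of all measured genes. Relative to the median gene, the same 3 were higher and 2 (Il7r and Bach2) lower, beside 12.4% and 16.2% of all measured genes. The median of the 9 genes was 0.46 log2, and -0.27 relative. In both comparisons the 9 genes were spread over both directions, and as deposited their median lay below that of all measured genes.

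**Figure D2:**
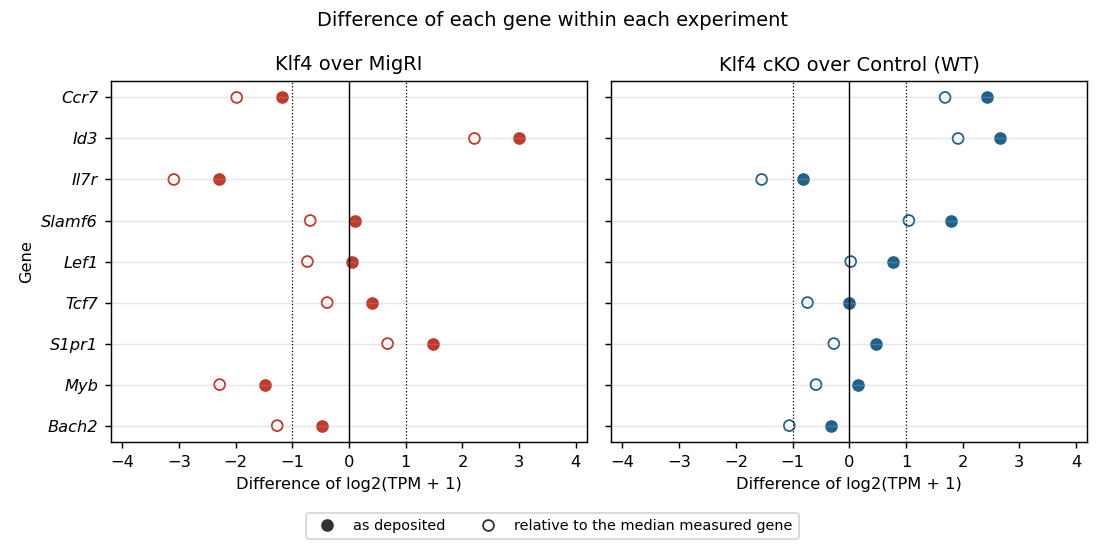
Differences of log2(TPM + 1) for Klf4 over MigRI and for the cKO-labelled library over Control (WT), as deposited (filled) and relative to the median measured gene (open), with dotted lines at 1 log2 each way. Id3 lies right of 1 in both panels, Il7r lies left of 0 in both, and Ccr7 lies on opposite sides.

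Among the transcription factors, Tcf7, an HMG box factor that defines progenitor exhausted cells, was at 4.04 TPM in the Klf4-transduced library, against 2.80 TPM in MigRI, a difference of 0.41 log2 and -0.39 relative. It was at 0.989 TPM in the cKO-labelled library, against 0.988 TPM in Control (WT), a difference of 0.00051 log2 and -0.74 relative. As deposited, both PD1+ libraries were thus at nearly the same low TPM of Tcf7, and neither difference was called. Other scalings moved both values: in the cKO-labelled library the difference was -0.49 log2 under median of ratios scaling and -1.82 log2 against the receptor constant genes, and with Klf4 it was -0.34 and 2.44 log2.

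Lef1, the HMG box partner of Tcf7, was at 5.17 TPM in the Klf4-transduced library, against 4.92 TPM in MigRI, a difference of 0.06 log2. It was at 4.05 TPM in the cKO-labelled library, against 1.98 TPM in Control (WT), a difference of 0.76 log2 and 0.03 relative. Lef1 exceeded Tcf7 in every library, with a Tcf7 to Lef1 ratio of TPM of 0.781 in the Klf4-transduced library, 0.569 in MigRI, 0.244 in the cKO-labelled library and 0.499 in Control (WT).

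Id3 differed by 3.00 log2 for Klf4 over MigRI, 2.21 relative, and by 2.66 log2 for the cKO-labelled library over Control (WT), 1.92 relative. Id2, the related inhibitor that prevails in effector cells, was at 291 TPM in the Klf4-transduced library, against 460 TPM in MigRI, and at 2137 TPM in the cKO-labelled library, against 1078 TPM in Control (WT). The ratio of Id3 to Id2, which does not depend on the scale of a library, was 1.17 in the Klf4-transduced library and 0.0906 in MigRI. In the PD1+ cells it was 0.0490 in the cKO-labelled library and 0.0146 in Control (WT). Id3 thus exceeded Id2 in 1 library, the Klf4-transduced one. The E protein genes Tcf3 and Tcf12, whose products ID proteins block, were at 37.5 and 7.95 TPM in the Klf4-transduced library, against 7.09 and 2.11 TPM in MigRI. They were at 6.22 and 2.90 TPM in the cKO-labelled library, against 2.41 and 1.59 TPM in Control (WT).

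The summed TPM of fibroblast, macrophage and mast cell markers was higher in the same libraries as Id3. The 6 fibroblast markers summed to 1273 TPM in the Klf4-transduced library, against 133 TPM in MigRI, and to 243 TPM in the cKO-labelled library, against 27.2 TPM in Control (WT). Of them, 6 of 6 were called higher with Klf4 and 4 of 6 in the cKO-labelled library, beside 43.7% and 38.4% of all measured genes. Relative to the median gene, 6 were higher with Klf4 and 2 in the cKO-labelled library, beside 21.4% and 12.4%. Against the receptor constant genes 6 were higher with Klf4, where the median measured gene was at 2.83 log2. In the cKO-labelled library 2 were higher and 2 lower against them, with a median of -0.31 log2, where the median measured gene was at -1.08 log2. None of the 6 was at 0 TPM in any library. The 10 macrophage and monocyte markers summed to 4654 TPM in the Klf4-transduced library, against 881 TPM in MigRI, and to 1161 TPM in the cKO-labelled library, against 309 TPM in Control (WT). Of these, 9 were measured, 9 were called higher with Klf4 and 7 in the cKO-labelled library, beside the same 43.7% and 38.4%. Relative to the median gene, 9 were higher with Klf4 and 5 in the cKO-labelled library, beside the same 21.4% and 12.4%. Against the receptor constant genes 9 were higher with Klf4. In the cKO-labelled library 0 were higher and 2 lower against them, with a median of 0.04 log2. None of the 10 was at 0 TPM in any library. The 6 mast cell markers summed to 104 TPM in the Klf4-transduced library, against 1.02 TPM in MigRI. Their sum was 83.0 TPM in the cKO-labelled library, against 0 TPM in Control (WT). Of them, 5 were measured, and 5 were called higher in each comparison, beside the same 43.7% and 38.4%. Relative to the median gene and against the receptor constant genes alike, 5 were higher with Klf4 and 4 in the cKO-labelled library. The part of these cells in the level of Id3 was not tested.

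Bach2, a repressor that restrains effector genes, was at 0.400 TPM in the Klf4-transduced library, against 0.944 TPM in MigRI, and at 1.14 TPM in the cKO-labelled library, against 1.68 TPM in Control (WT). The differences were -0.47 and -0.32 log2, and -1.27 and -1.06 relative, so both were under 2-fold as deposited and past it relative to the median gene. Against the receptor constant genes the difference with Klf4 turned to 1.56 log2, and that in the cKO-labelled library was -2.14 log2. Mafk, a small Maf protein with which BACH factors pair, was at 36.2 TPM in the Klf4-transduced library, against 1.79 TPM in MigRI.

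Myb, a factor that sustains progenitor exhausted cells, was at 0.368 TPM in the Klf4-transduced library, against 2.84 TPM in MigRI, a difference of -1.49 log2 and -2.28 relative. In the PD1+ cells it was at 1.43 TPM in the cKO-labelled library, against 1.19 TPM in Control (WT), a difference of 0.15 log2. Bach2 and Myb sat near the 1 TPM limit, at percentiles 4.02 and 3.83 of measured genes in the Klf4-transduced library.

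Among the receptors, Il7r differed by -2.30 log2 for Klf4 over MigRI, -3.09 relative, and by -0.81 log2 for the cKO-labelled library over Control (WT), -1.55 relative. Its percentile among measured genes was 23.2 in the Klf4-transduced library and 72.8 in MigRI, and 81.7 in the cKO-labelled library and 91.6 in Control (WT). Il2rg, the common gamma chain with which it pairs, was at 287 TPM in the Klf4-transduced library, against 737 TPM in MigRI, and at 649 TPM in the cKO-labelled library, against 226 TPM in Control (WT). The ratio of Il7r to Il2rg was 0.0124 in the Klf4-transduced library and 0.0291 in MigRI, and 0.0682 in the cKO-labelled library and 0.346 in Control (WT), lower than in the paired control library in both experiments. Il7, the ligand, which stromal cells make, was at 10.8 TPM in the Klf4-transduced library, against 1.60 TPM in MigRI, and at 1.25 TPM in the cKO-labelled library, against 1.35 TPM in Control (WT). Jak1, a kinase of this receptor, was at 26.3 TPM in the Klf4-transduced library, against 33.2 TPM in MigRI, and at 61.5 TPM in the cKO-labelled library, against 119 TPM in Control (WT).

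Slamf6, a homophilic receptor used to mark progenitor exhausted cells, was at 5.96 TPM in the Klf4-transduced library, against 5.46 TPM in MigRI, a difference of 0.11 log2 and -0.68 relative. It was at 9.82 TPM in the cKO-labelled library, against 2.13 TPM in Control (WT), a difference of 1.79 log2 and 1.05 relative. An annotated antisense gene, Gm37065, overlaps it and was listed at 0 in the Klf4-transduced library, at 0.537 TPM in MigRI, at 0 in the cKO-labelled library and at 1.497 TPM in Control (WT). Sh2d1a, the adaptor SAP through which SLAM receptors signal, was at 17.4 TPM in the Klf4-transduced library, against 194 TPM in MigRI, and at 184 TPM in the cKO-labelled library, against 71.1 TPM in Control (WT).

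Of 6 other SLAM family genes, all measured, 6 were called higher in the cKO-labelled library as deposited, with a median of 1.35 log2, beside 38.4% of all measured genes. Relative to the median gene 2 were higher, beside 12.4% of all measured genes. Against the receptor constant genes 1 was higher and the median turned to -0.47 log2, where the median measured gene was at -1.08 log2. Cd244a was at 19.9 TPM in the cKO-labelled library, against 1.77 TPM in Control (WT), and Cd48, its ligand, at 430 TPM, against 87.8 TPM. Slamf7 and Ly9 were at 89.1 and 8.63 TPM in the cKO-labelled library, against 29.7 and 3.38 TPM in Control (WT). With Klf4, 0 of the 6 were called higher and 1 lower, with a median of -0.09 log2, beside 43.7% and 10.3% of all measured genes. Against the receptor constant genes 5 were higher, with a median of 1.95 log2, below the 2.83 log2 of the median measured gene. The lower gene was Cd48, at 66.4 TPM in the Klf4-transduced library, against 171 TPM in MigRI.

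Among the homing genes, Ccr7 was at 125 TPM in the Klf4-transduced library, against 286 TPM in MigRI, a difference of -1.19 log2 and -1.98 relative. It was at 121 TPM in the cKO-labelled library, against 21.7 TPM in Control (WT), a difference of 2.43 log2 and 1.69 relative. The receptor constant genes differed in the same directions, and against them Ccr7 was higher in both comparisons, by 0.85 and 0.61 log2. The median measured gene was at 2.83 and -1.08 log2 on that scale. Mature dendritic cells also express Ccr7. A list of 7 markers of dendritic cells in general, not of the mature ones alone, summed to 43.4 TPM in the Klf4-transduced library, against 5.43 TPM in MigRI. The sum was 10.2 TPM in the cKO-labelled library, against 13.9 TPM in Control (WT). Of these markers, Xcr1 was at 0.565 TPM in the Klf4-transduced library, against 0.292 TPM in MigRI, and at 4.58 TPM in the cKO-labelled library, against 9.82 TPM in Control (WT). Of 4 measured markers, 2 were called higher and 0 lower with Klf4, beside 43.7% and 10.3% of all measured genes. In the cKO-labelled library 1 was called higher and 0 lower, beside 38.4% and 6.92%. At 0 TPM were 0 of the 7 in the Klf4-transduced library, 3 in MigRI, 1 in the cKO-labelled library and 3 in Control (WT). Flt3 was at 0 in MigRI and Control (WT), and Clec9a at 0 in all libraries but the Klf4-transduced one. Ccl22 was at 6.69 TPM in the Klf4-transduced library, against 1.47 TPM in MigRI, and at 1.22 TPM in the cKO-labelled library and listed at 0 in Control (WT). Fscn1 was at 30.5 TPM in the Klf4-transduced library, against 2.42 TPM in MigRI, and at 2.11 TPM in the cKO-labelled library, against 2.46 TPM in Control (WT). The part of dendritic cells in the level of Ccr7 was not tested. The CCR7 ligand gene Ccl21a was listed at 0 in every library, and Ccl19 at 0.547 TPM in the cKO-labelled library and at 0 in the others.

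S1pr1, the receptor that lets T cells leave tissue along a sphingosine 1-phosphate gradient, was at 3.16 TPM in the Klf4-transduced library, against 0.497 TPM in MigRI, a difference of 1.47 log2 and 0.68 relative. It was at 1.73 TPM in the cKO-labelled library, against 0.975 TPM in Control (WT), a difference of 0.46 log2 and -0.27 relative. Klf2, a relative of Klf4 that is known to drive S1pr1 in mouse T cells, was at 274 TPM in the Klf4-transduced library, against 20.2 TPM in MigRI, and at 33.6 TPM in the cKO-labelled library, against 18.7 TPM in Control (WT). Klf2 and S1pr1 were thus both called higher with Klf4 as deposited, as were 43.7% of all measured genes, and relative to the median gene S1pr1 was not called. A link between them was not tested. Cd69, whose product removes S1PR1 from the cell surface, was at 63.2 TPM in the Klf4-transduced library, against 70.3 TPM in MigRI, and at 117 TPM in the cKO-labelled library, against 34.2 TPM in Control (WT). Endothelium also expresses S1pr1, and its 5 markers summed to 2.08 TPM in the Klf4-transduced library, against 1.58 TPM in MigRI, and to 7.17 TPM in the cKO-labelled library, against 1.77 TPM in Control (WT). At 0 TPM were 1 of the 5 in the Klf4-transduced library, 2 in MigRI, 0 in the cKO-labelled library and 4 in Control (WT). Their part in the level of S1pr1 was not tested.

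**Figure D3:**
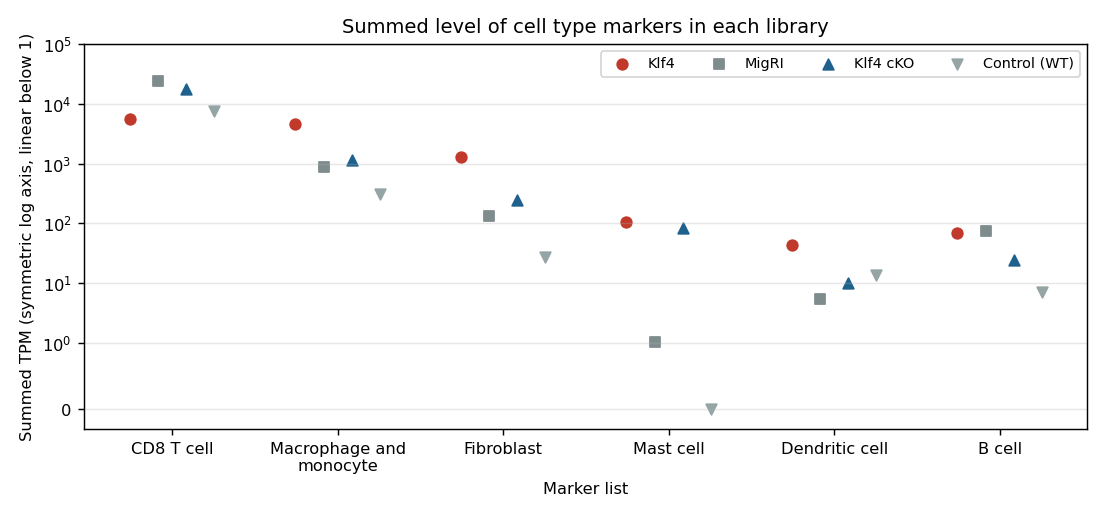
Summed TPM of 6 marker lists in each library on a symmetric log axis, 1 point per library. Macrophage, fibroblast and mast cell sums are higher in the Klf4-transduced library than in MigRI and in the cKO-labelled library than in Control (WT), while the CD8 T cell sum is 5662 TPM in the Klf4-transduced library and 23818 TPM in MigRI.

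Other genes of the progenitor programme were counted in lists. Among 10 progenitor surface and survival genes, 9 were measured. With Klf4, 7 of the 9 were called lower and 0 higher, beside 10.3% and 43.7% of all measured genes. Their median was -1.55 log2, against 0.79 log2 over all measured genes. Relative to the median gene the count was the same, beside 23.6% and 21.4%. Ltb, lymphotoxin beta, was at 30.9 TPM in the Klf4-transduced library, against 787 TPM in MigRI, and Dapl1, a gene of naive and progenitor cells, at 21.3 TPM, against 591 TPM. Cd27, a costimulatory receptor, was at 19.3 TPM in the Klf4-transduced library, against 69.5 TPM in MigRI, and Cd200 at 1.24 TPM, against 8.92 TPM. Against the receptor constant genes, 2 of the 9 were higher and 2 lower, with a median of 0.49 log2, where the median measured gene was at 2.83 log2. In the cKO-labelled library, 2 were called higher and 1 lower, with a median of 0.33 log2, beside 38.4% and 6.92% of all measured genes. Relative to the median gene the counts there were 1 and 1 with a median of -0.41, beside 12.4% and 16.2% of all measured genes. Against the receptor constant genes they were 0 and 7 with a median of -1.49, where the median measured gene was at -1.08 log2. Cd28 and Cd27 were at 106 and 127 TPM in that library, against 29.9 and 45.7 TPM in Control (WT), while Dapl1 was at 91.1 TPM, against 218 TPM.

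Of 10 other transcription factors of progenitor and memory cells, 9 were measured. With Klf4 2 were called higher and 2 lower, beside 43.7% and 10.3% of all measured genes. The counts were 2 and 3 relative to the median gene, beside 21.4% and 23.6%. Against the receptor constant genes they were 7 and 0, where the median measured gene was at 2.83 log2. Klf2 was one of the higher ones and Runx1, at 13.5 TPM in the Klf4-transduced library against 1.52 TPM in MigRI, the other. Satb1 and Ikzf1, chromatin organisers of lymphocytes, were at 1.58 and 1.40 TPM in the Klf4-transduced library, against 7.03 and 6.03 TPM in MigRI. In the cKO-labelled library, 2 were called higher and 0 lower, beside 38.4% and 6.92% of all measured genes. The 2 higher ones were Stat3, at 78.3 TPM against 26.9 TPM in Control (WT), and Foxo1, which drives Il7r and Klf2, at 8.68 TPM against 3.76 TPM. Relative to the median gene neither was past 2-fold. Against the receptor constant genes 0 of the 9 were higher and 6 lower, where the median measured gene was at -1.08 log2.

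Of 7 other homing and egress genes, 4 were measured, and with Klf4 1 was called higher (Itgb7) and 2 lower (Gpr183 and Cxcr3). Over all measured genes, 43.7% were called higher and 10.3% lower. Itgb7, an integrin chain of gut homing, was at 19.2 TPM in the Klf4-transduced library, against 6.80 TPM in MigRI. Gpr183, the oxysterol receptor EBI2, was at 8.34 TPM in the Klf4-transduced library, against 50.5 TPM in MigRI, and Cxcr3, a receptor for interferon-induced chemokines, at 5.88 TPM, against 15.8 TPM. In the cKO-labelled library, 2 of the 4 were called higher and 0 lower, beside 38.4% and 6.92% of all measured genes. Gpr183 and Cxcr3 were at 81.1 and 36.3 TPM in that library, against 26.03 and 8.43 TPM in Control (WT), so that both, like Ccr7, were called in opposite directions as deposited. Relative to the median gene, Gpr183 in the cKO-labelled library was at 0.87 log2 and no longer called. Against the receptor constant genes neither was called, with Gpr183 at -0.43 log2 for Klf4 over MigRI and -0.22 log2 in the cKO-labelled library, and Cxcr3 at 0.74 and 0.17 log2. S1pr4 was at 3.67 TPM in the cKO-labelled library, against 4.93 TPM in Control (WT).

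Of 19 partners of the 9 gene products, 16 were measured. With Klf4, 7 were called higher and 2 lower, with a median of 0.95 log2, and in the cKO-labelled library 6 were called higher and 0 lower, with a median of 0.60 log2. The shares called higher were close to the 43.7% and 38.4% of all measured genes, of which 10.3% and 6.92% were called lower. Relative to the median gene the counts were 5 higher and 3 lower with Klf4, beside 21.4% and 23.6% of all measured genes. In the cKO-labelled library they were 2 higher and 1 lower, beside 12.4% and 16.2%. The medians on that scale were 0.16 and -0.14 log2. Against the receptor constant genes the counts were 14 and 1 with Klf4, and 0 and 9 in the cKO-labelled library. The median measured gene was at 2.83 and -1.08 log2 against those constant genes. Gnai2, the G protein subunit through which CCR7 and S1PR1 signal, was at 424 TPM in the Klf4-transduced library, against 173 TPM in MigRI, and at 320 TPM in the cKO-labelled library, against 78.7 TPM in Control (WT).

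A list of effector and terminal differentiation genes also held Tox, and 12 of 12 were measured. With Klf4, 6 were called higher and 1 lower, beside 43.7% and 10.3% of all measured genes, and after subtraction of the median gene 1 and 4, beside 21.4% and 23.6%. Against the receptor constant genes 11 were higher and 0 lower, where the median measured gene was at 2.83 log2. Prdm1, which encodes BLIMP-1, was at 6.55 TPM in the Klf4-transduced library, against 1.16 TPM in MigRI, while Tox, a factor of exhaustion, was at 0.612 TPM, against 7.89 TPM. Bhlhe40 and Entpd1, which encodes the ectonucleotidase CD39, were at 271 and 10.2 TPM in the Klf4-transduced library, against 84.75 and 2.95 TPM in MigRI. In the cKO-labelled library, 8 were called higher and 0 lower, beside 38.4% and 6.92% of all measured genes, and after subtraction of the median gene 2 and 0, beside 12.4% and 16.2%. Against the receptor constant genes 1 was higher and 3 lower, with a median of -0.65 log2, where the median measured gene was at -1.08 log2. The 2 past 2-fold after subtraction of the median gene were Gzmb, granzyme B, at 3154 TPM against 402 TPM in Control (WT), and Klrg1, a marker of terminal effectors, at 6.32 TPM against 0.364 TPM.

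Id3 and Il7r kept their direction in both comparisons under each of 11 other settings of the pseudocount, the filter and the scaling. The filters leave the difference of a single gene unchanged and the pseudocount cannot turn its sign. Only the scalings could therefore have turned a direction. For Klf4 over MigRI, Id3 ranged from 2.01 to 5.04 log2 and Il7r from -3.09 to -0.26 log2. For the cKO-labelled library over Control (WT), Id3 ranged from 0.84 to 2.72 log2 and Il7r from -2.63 to -0.76 log2. S1pr1 stayed higher with Klf4, from 0.57 to 3.51 log2 under 9 settings, and was under 2-fold in 4 of them. Ccr7, Myb and Bach2, lower with Klf4 as deposited, were higher when set against the receptor constant genes, by 0.85, 0.55 and 1.56 log2, and Slamf6, higher in the cKO-labelled library, came to -0.029 log2 against them. On that scale the median measured gene was at 2.83 log2 with Klf4 and at -1.08 log2 in the cKO-labelled library.

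**Figure D4:**
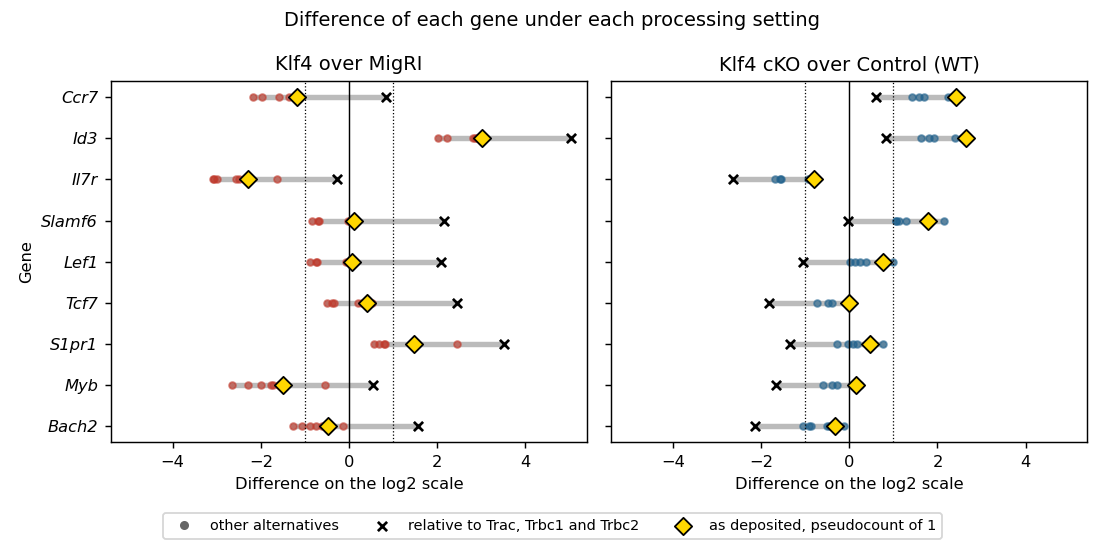
Difference of each gene on the log2 scale under each processing setting, with the value as deposited (diamond), the value relative to the receptor constant genes Trac, Trbc1 and Trbc2 (cross) and the other alternatives (points), and the grey bar spanning all of them. Id3 stays right of 0 and Il7r left of 0 in both panels, whereas the bars of most other genes cross 0.

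For each of the 3 members with the highest mean level, the genes with the nearest pair of differences were sought among 4843 genes at a mean of 10 TPM or more, which with 2 differences per gene is a weak measure of likeness. Nearest to Ccr7 were Cd48, Tipin and Coro1a, at distances of 0.22, 0.26 and 0.34 log2. Nearest to Id3 were Tnfrsf12a, Ppic and Sc5d, at 0.08, 0.13 and 0.21 log2. Tnfrsf12a, the TWEAK receptor, was at 337 TPM in the Klf4-transduced library, against 40.7 TPM in MigRI, and at 55.3 TPM in the cKO-labelled library, against 8.41 TPM in Control (WT). Nearest to Il7r were Cyba, Dnajc15 and Bcor, at 0.05, 0.06 and 0.13 log2. Cyba, a subunit of the phagocyte NADPH oxidase, was at 713 TPM in the Klf4-transduced library, against 3473 TPM in MigRI, and at 2068 TPM in the cKO-labelled library, against 3506 TPM in Control (WT).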

How the data were processed

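Gene-level TPM values, 1 table for each of 4 SMART-seq libraries, were deposited by the authors, and the unit is that of the file headers. Trimmomatic, HISAT2, StringTie, edgeR and the build mm10 are named, per the submitters' processing notes, while their versions and roles and the gene annotation are not stated in these sources. Each table held 45777 entries. Of these, 26 symbols of the Control (WT) table had become calendar dates, and 4 genes behind ambiguous dates were left out of all libraries. Differences of log2(TPM + 1) were computed in Python 3.11.15 with pandas 2.3.3, with no test because each group is 1 library. The calling step was tested on simulated data. The simulation held only genes at 5 TPM or more in the control library, changes well past 2-fold and no shift between libraries. It therefore does not show how calls behave for low genes or under such a shift. Lists of related genes and markers were counted in full, except for 1 gene that is not reported here, and up to 4 measured genes per list and comparison with the largest absolute difference were eligible for naming, together with a few listed partners chosen after their values were seen (Id2, Tcf12, Jak1, Ccl19 and Ccl21a). The members and lists were chosen with earlier results of these data known. Promoters came from RefSeq and overlapping genes from GENCODE vM21.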

Additional observations from a re-analysis of the deposited data

How the results depend on the processing

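No paired analysis was possible because each group is 1 library. With Klf4 over MigRI, the median of the 9 genes, 0.06 log2, changed sign to -0.74 under median of ratios scaling, -0.87 under quantile normalization, -0.73 relative to the median gene and -0.078 without the 50 most abundant genes. It was -0.54 and -1.19 at means of at least 5 and 10 TPM, where 4 and 3 members are left, and 2.09 relative to Trac, Trbc1 and Trbc2. For the cKO-labelled library over Control (WT), the median of 0.46 log2 became -0.033 under median of ratios scaling, -0.27 relative to the median gene, -1.35 relative to the receptor constant genes, and 2.11 and 2.43 at the 2 stricter filters. The 2 members called higher with Klf4 became 1 with a pseudocount of 5, at both stricter filters, under median of ratios scaling, under quantile normalization and relative to the median gene, and 6 relative to the receptor constant genes, where the 3 lower ones became 0. For the cKO-labelled library, the 3 called higher became 0 relative to the receptor constant genes, and the 0 called lower became 1 under median of ratios scaling and under quantile normalization, 2 relative to the median gene and 6 relative to the receptor constant genes. Against those genes the Klf4 over MigRI differences of Ccr7, Myb and Bach2 turned to 0.85, 0.55 and 1.56 log2, and that of Slamf6 in the cKO-labelled library to -0.029 log2. The median measured gene was itself at 2.83 log2 with Klf4 and at -1.08 log2 in the cKO-labelled library against the receptor constant genes. Relative to the median gene, 21.4% of all measured genes were called higher and 23.6% lower with Klf4. In the cKO-labelled library these shares were 12.4% and 16.2%. For the other alternative settings such shares were not computed, so the counts of members there cannot be told from a shift of the whole library. The stricter filters act by leaving fewer genes. The scaling relative to the median gene subtracts the same value from every gene, 0.79 log2 with Klf4 and 0.74 log2 in the cKO-labelled library. That relative to the receptor constant genes subtracts -2.03 and 1.82 log2. For the other scalings the cause was not tested. The calls of single members at unknown depth carry no error, and those near 1 TPM (Bach2, Myb, S1pr1 and Tcf7) are the least certain.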
